A study of Mus musculus with 6 samples.

Results

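The genes described here are 37 mouse genes of the endoplasmic reticulum (ER) that fold new secretory and membrane proteins, carry them across the ER membrane, or remove those that fail to fold. They were listed by name, with earlier results of these data known, from the 55487 genes of the deposited count tables. Each of the 37 symbols stood for 1 identifier. By role they are 7 HSP70, HSP90 and associated chaperones, 4 J proteins, 6 lectins and disulfide isomerases, 11 genes of ER-associated degradation (ERAD), 5 genes of the translocon and 4 subunits of the translocon-associated protein (TRAP) complex. RNA sequencing counts came from 6 libraries whose titles name granulosa cells of the ovary, which enclose the oocyte in its follicle and produce steroid hormones. The 3 control libraries were labelled wild type (WT) and PBS, phosphate-buffered saline. The 3 exposed libraries, also labelled WT, were titled CPC for cetylpyridinium chloride, a quaternary ammonium compound and antiseptic of oral care products, and the series asks how exposure to it affects the mouse ovary.

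The sources used here give no dose, time or animal age, and do not say whether exposure was in the animal or in culture. The labels also name SKOV3, a human ovarian cancer line, and a transfection of GATA4, whereas the tables hold mouse genes located on GRCm38.p6. Gata4 lay at 261 to 317 CPM in control and 242 to 269 CPM in CPC and was not called changed, and Inha, a granulosa cell hormone subunit, lay at 1582 to 1952 CPM in control and 835 to 1341 CPM in CPC. CPM is the usual unit of counts scaled to library size, here with TMM factors for single genes. Library totals were 19079345 to 23157541 counts, and the 37 genes had 237 to 114129 counts per library. The labels do not tell whether a group's libraries stem from different animals or cultures, so the p-values reflect only library-to-library spread, which could be technical.

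As background, proteins enter the ER through the SEC61 channel, are bound by the HSP70 chaperone BiP and its J protein partners, and fold with the help of disulfide isomerases and the lectins calnexin and calreticulin. Proteins that do not fold are passed by lectins to a membrane complex built around SEL1L and the ubiquitin ligase HRD1, moved back to the cytosol and degraded by the proteasome. When unfolded proteins accumulate, the sensors IRE1, PERK and ATF6 start the unfolded protein response (UPR), which is known for raising transcription of many of these genes. Granulosa cells secrete hormones and matrix proteins through this route.

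All 37 genes passed the filter on low counts, which left 15000 of 26620 genes with any count. With edgeR's quasi-likelihood test and an adjusted p under 0.05 over all 15000, 9 of the 37 genes were higher in CPC and 7 were lower, and 21 were not called. Across all tested genes 19.6% were higher and 19.7% lower, against 24.3% and 18.9% of the 37. These shares lie near the background, so the counts alone did not set the genes apart. The median log2 change of the 37 was 0.035, beside -0.003 over all tested genes. The 9 higher genes were Hspa5, Hyou1, Dnajb9, Canx, Herpud1, Sel1l, Edem1, Derl1 and Sec61a1, and the 7 lower genes were Dnajb11, Dnajc10, Calr, Pdia3, Edem3, Erlec1 and Sec62. Genes of both directions thus stood in 4 of the 6 roles. Calls were also checked without single libraries and without a pair, meaning the control and CPC library of 1 replicate number. These fits had fewer libraries, hence less power, and did not pair the libraries by replicate number. The count of 7 lower genes became 3 without control 1, CPC 1 or CPC 3, 4 without pair 3 and 0 without pair 1. Hspa5, Hyou1, Dnajb9, Herpud1, Sel1l and Derl1 kept their calls under all 17 alternatives.

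The 3 CPC libraries lay above all 3 controls for 11 of the 37 genes and below them for 8. The same was true of 26.7% and 26.8% of all tested genes. Within equal replicate numbers, 16 genes were higher in CPC in all 3 pairs, 10 were lower in all 3 and 11 were mixed. No such count was made over all tested genes, so these numbers do not set the 37 genes apart. Since the replicate numbers paired the libraries, a fit with the number as a block was run as well. It called 12 of the 37 higher and 8 lower, against 26.5% and 27.9% of all tested genes, and kept every call of the fit without a block. The block added Hsp90b1, Pdia6 and Derl3 to the higher genes and Sec61b to the lower ones, and those values stand beside each gene.

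**Figure D1:**
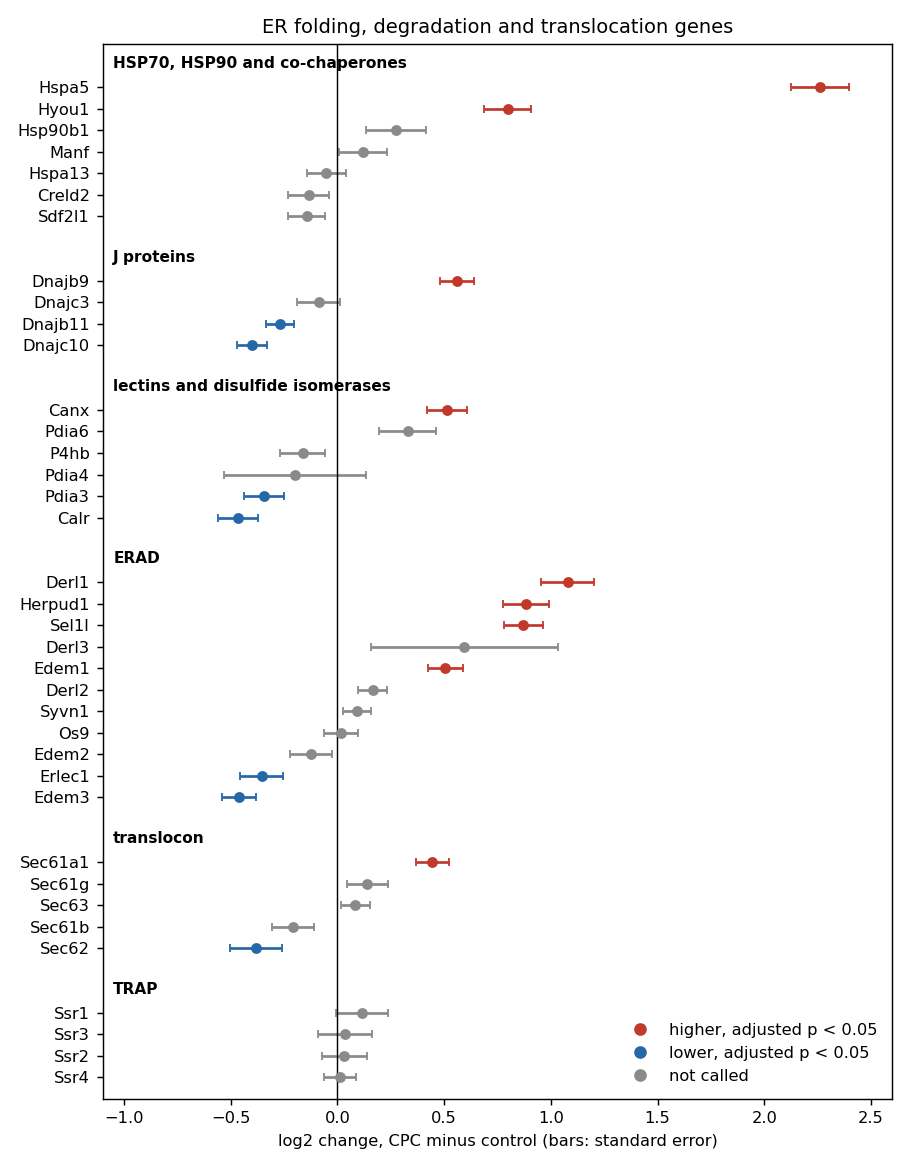
Log2 change between CPC and control for the 37 genes by role, as points with standard errors from the edgeR fit on 3 libraries a group. Hspa5 stands apart at 2.26 while Calr, Edem3 and Dnajc10 lie at -0.47, -0.46 and -0.40.

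Marker genes of granulosa and other cell types were read in the same libraries. Of 11 tested leukocyte markers 9 were lower in CPC and none higher, with a summed level of 199 to 323 CPM in control and 14.9 to 40.1 CPM in CPC. Of 11 tested granulosa markers 8 were lower and none higher, with sums of 7170 to 8440 CPM in control and 4590 to 6260 CPM in CPC. The highest of them were Inhba, Inha and Gja1, with control means of 4154, 1719 and 1282 CPM. Fshr lay at 2.62 to 3.76 CPM in control and 1.25 to 1.54 CPM in CPC. Cyp19a1 lay at 0.423 to 0.611 and 0.557 to 1.35 CPM, and Amh had 0 to 3 counts per library. For luteal markers 3 of 4 tested were lower, with sums of 3200 to 5000 and 707 to 1350 CPM. Of all tested genes 19.7% were lower. In bulk RNA, fewer cells of a type and less RNA per cell cannot be told apart. None of the tested markers of theca and stroma (6), surface epithelium (7) or endothelium (3) was called changed, with summed levels of 481 to 878, 156 to 340 and 4.13 to 4.93 CPM in control and 298 to 1050, 95.1 to 374 and 3.02 to 4.08 CPM in CPC. Cyp17a1, a defining theca gene, was at 0 in all 6 libraries. Summed oocyte markers lay at 1.21 to 3.71 CPM in control and 0.151 to 0.355 CPM in CPC, and summed erythroid markers lay at or below 0.096 CPM. The part of these shifts in the changes below was not tested.

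Hspa5 had the largest change of the 37 genes. It encodes BiP, the HSP70 chaperone of the ER lumen (ENSMUSG00000026864, chromosome 2, 34771970 to 34777547, plus strand, GRCm38.p6). Its level was 1007, 992 and 946 CPM in control 1 to 3 and 4889, 5155 and 4080 CPM in CPC 1 to 3, so the groups were far apart and CPC 3 was the lowest exposed library. The mean rose 4.80-fold, a log2 change of 2.26 ± 0.14 (SE, n = 3 against 3, edgeR adjusted p = 1.99e-04). Hspa5 alone held 9.34% to 9.64% of the counts of the 37 genes in control and 30.2% to 33.0% in CPC. The plain CPM summed over the 37 genes was 10259, 10520 and 9551 in control and 15364, 16310 and 13898 in CPC. Without Hspa5 the sums were 9270, 9537 and 8649 in control and 10299, 11130 and 9697 in CPC. Those plain sums did not overlap, but with the TMM scaling used for single genes they did, at 9440, 9634 and 9068 in control and 9942, 11076 and 9419 in CPC.

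Hyou1 encodes GRP170, a large HSP70 relative that exchanges the nucleotide on BiP. It was at 314, 349 and 297 CPM in control and 557, 617 and 495 CPM in CPC, with every exposed library above every control. The change was 1.74-fold, or 0.80 ± 0.11 on the log2 scale (adjusted p = 0.00198). Hsp90b1 encodes GRP94, the HSP90 of the ER. It was at 921, 911 and 771 CPM in control and 1041, 1217 and 895 CPM in CPC, so the lowest exposed library fell among the controls. Its log2 change of 0.28 ± 0.14 missed the threshold (adjusted p = 0.157), but it was called higher with the replicate block (adjusted p = 0.028), each pair having CPC above control.

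The other 4 genes of this role were not called. Manf, a secreted factor that binds BiP, was at 156 to 170 CPM in control and 152 to 205 CPM in CPC. Hspa13, an HSP70 relative, was at 122 to 148 CPM in control and 124 to 140 CPM in CPC, and Creld2, an ER stress-induced secreted protein, at 26.3 to 30.9 and 24.2 to 27.8 CPM. For these genes the groups overlapped. Sdf2l1, which acts with the J protein ERdj3, was at 23.2, 21.1 and 20.9 CPM in control and 19.4, 20.3 and 19.2 CPM in CPC. The groups did not overlap, but the log2 change of -0.14 ± 0.09 was not called (adjusted p = 0.235).

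J proteins bring substrates to BiP and start its ATP cycle, and the 4 measured here went different ways. Dnajb9 encodes ERdj4, which helps route misfolded proteins to degradation. It was at 58.3, 53.0 and 58.0 CPM in control and 78.3, 89.0 and 82.5 CPM in CPC, with no overlap, and rose 1.48-fold (log2 0.56 ± 0.08, adjusted p = 0.00205). Dnajc10 encodes ERdj5, a reductase that opens disulfide bonds of proteins bound for degradation. It was at 202, 197 and 196 CPM in control and 151, 141 and 159 CPM in CPC. The exposed libraries were all lower, and the level fell 1.32-fold (log2 -0.40 ± 0.07, adjusted p = 0.00479, and 0.0827 without pair 1).

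Dnajb11 encodes ERdj3, a J protein that works with BiP on folding. It was at 127, 122 and 123 CPM in control and 98.5, 110 and 101 CPM in CPC, again without overlap. The log2 change of -0.27 ± 0.07 passed the threshold (adjusted p = 0.018). It no longer passed without control 1 (0.0713), CPC 1 (0.0747) or CPC 3 (0.0534), or without pair 1 (0.219) or 3 (0.0697). Dnajc3, which encodes p58IPK, a BiP co-chaperone also known to inhibit PERK, was at 168 to 193 CPM in control and 150 to 188 CPM in CPC and was not called (adjusted p = 0.523). The direction therefore differed between J proteins that serve the same chaperone. Of these 4 genes 25% were higher and 50% lower, beside 19.6% and 19.7% of all tested genes.

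Calnexin and calreticulin are a pair of related lectins that hold glycoproteins during folding, one in the membrane and one in the lumen. Canx, for calnexin, was at 831, 808 and 812 CPM in control and 1171, 1240 and 1092 CPM in CPC. Every exposed library was higher, and Canx rose 1.43-fold (log2 0.52 ± 0.09, adjusted p = 0.00534). Calr, for calreticulin, was at 827, 787 and 776 CPM in control and 567, 626 and 537 CPM in CPC. Every exposed library was lower, and Calr fell 1.38-fold (log2 -0.47 ± 0.09, adjusted p = 0.0079). Without pair 1 neither call held (adjusted p = 0.078 for Canx and 0.113 for Calr).

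Pdia3 encodes ERp57, the disulfide isomerase that works with these lectins. It was at 1024, 1003 and 922 CPM in control and 762, 815 and 748 CPM in CPC, with the exposed libraries lower throughout. The log2 change was -0.34 ± 0.09 (adjusted p = 0.0241). Pdia3 was no longer called without control 1 (0.0917), control 2 (0.0631), CPC 1 (0.0785) or CPC 3 (0.0623), and without pair 1 (0.222) or 2 (0.101). Pdia6, another isomerase, was at 227, 245 and 198 CPM in control and 279, 325 and 237 CPM in CPC. Its groups overlapped through control 2 and CPC 3, and the log2 change of 0.33 ± 0.13 was not called (adjusted p = 0.0882), but it was with the replicate block (0.00373), and likewise with no scaling factors (0.0496), without CPC 3 (0.0362) and without pair 3 (0.0489).

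The main disulfide isomerase P4hb was at 882, 861 and 944 CPM in control and 748, 894 and 758 CPM in CPC and was not called (adjusted p = 0.261). Pdia4, which encodes ERp72, was at 199, 385 and 174 CPM in control and 202, 276 and 182 CPM in CPC. Replicate 2 was high in both groups, and the adjusted p was 0.67. Its log2 change of -0.20 ± 0.33 turned to 0.24 without control 2. The 6 genes of this role thus held 1 gene called higher, 2 lower and 3 not called, with a median log2 change of -0.18. These are 16.7% higher and 33.3% lower, beside 19.6% and 19.7% of all tested genes.

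**Figure D2:**
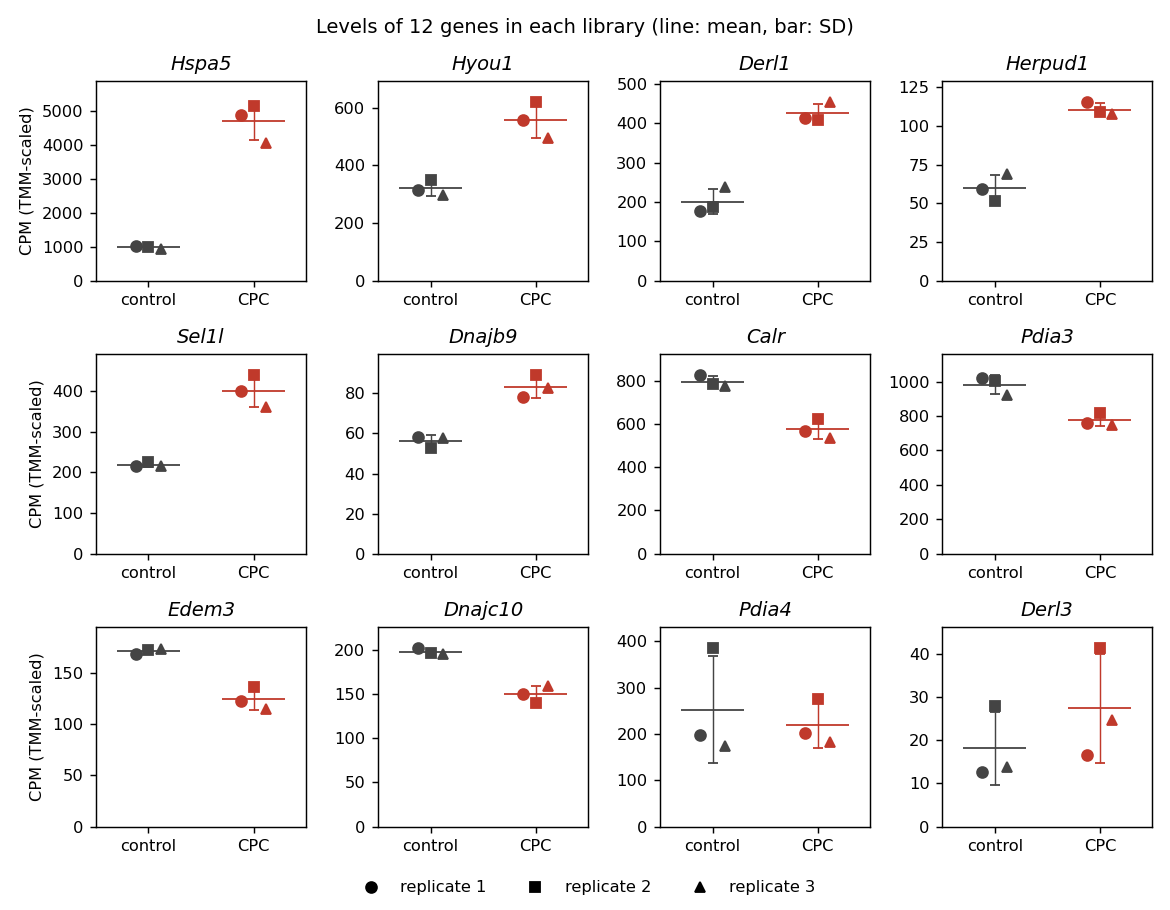
TMM-scaled CPM of 12 genes in each library, with group means as lines and SDs as bars (n = 3), on axes that start at 0. The 6 genes from Hspa5 to Dnajb9 have every CPC library above the controls, the 4 from Calr to Dnajc10 every CPC library below, and in Pdia4 and Derl3 replicate 2 is the highest of both groups.

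ERAD genes had 4 higher and 2 lower of 11, with a median log2 change of 0.17. These are 36.4% and 18.2%, beside 19.6% and 19.7% of all tested genes. At the membrane, SEL1L is the scaffold that holds the ligase HRD1, encoded by Syvn1, and HERPUD1 joins substrates and derlins to that complex. Sel1l was at 216, 226 and 214 CPM in control and 400, 439 and 361 CPM in CPC and rose 1.83-fold (log2 0.87 ± 0.09, adjusted p = 7.49e-04). Syvn1 was at 53.3, 51.3 and 54.6 CPM in control and 55.9, 56.5 and 57.2 CPM in CPC. All exposed libraries of Syvn1 were above the controls, but by little, and the log2 change of 0.09 ± 0.07 was not called (adjusted p = 0.315). Herpud1 was at 59.1, 51.7 and 68.7 CPM in control and 115, 109 and 108 CPM in CPC. The groups were well apart, and Herpud1 rose 1.85-fold (log2 0.89 ± 0.11, adjusted p = 0.00124).

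Derlins are membrane proteins through which substrates leave the ER. Derl1 was at 178, 187 and 238 CPM in control and 413, 409 and 453 CPM in CPC, with replicate 3 the highest of each group. It rose 2.11-fold (log2 1.08 ± 0.12, adjusted p = 0.001), the second largest change of the 37 genes after Hspa5. Derl2 was at 73.7, 69.5 and 75.7 CPM in control and 83.9, 83.3 and 78.2 CPM in CPC, without overlap, and was not called (log2 0.17 ± 0.07, adjusted p = 0.0947), although it passed with no scaling factors (0.025). Derl3 was at 12.7, 27.8 and 13.8 CPM in control and 16.5, 41.2 and 24.6 CPM in CPC. Its groups overlapped because replicate 2 was high in each, and the log2 change of 0.60 ± 0.44 was not called (adjusted p = 0.327). With the replicate block it was called higher (adjusted p = 0.00135). Markers of B and plasma cells, a cell type known for much Derl3, summed to 0.314 to 0.734 CPM in control and 0.252 to 0.932 CPM in CPC. None of the 5 markers passed the filter on low counts, and the part of such cells in the Derl3 level was not tested.

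EDEM proteins act in the trimming of mannose from glycoproteins that fail to fold, which marks them for removal. Edem1 was at 124, 123 and 144 CPM in control and 181, 193 and 180 CPM in CPC, with no overlap, and rose 1.42-fold (log2 0.51 ± 0.08, adjusted p = 0.00361). Edem3 was at 169, 173 and 174 CPM in control and 123, 137 and 115 CPM in CPC and fell 1.38-fold (log2 -0.46 ± 0.08, adjusted p = 0.00424). Both calls were lost without pair 1 (adjusted p = 0.061 for Edem1 and 0.0668 for Edem3). Edem2 was at 73.0 to 91.3 CPM in control and 70.7 to 76.5 CPM in CPC and was not called. Changes in both directions were thus found within this family, as they were across all tested genes (19.6% higher and 19.7% lower).

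OS9 and ERLEC1 are the lectins that read the trimmed glycans. Os9 was at 133 to 157 CPM in control and 142 to 148 CPM in CPC, with no call (adjusted p = 0.867). Erlec1 was at 64.4, 52.4 and 55.1 CPM in control and 46.5, 41.4 and 46.4 CPM in CPC, without overlap (log2 -0.36 ± 0.10, adjusted p = 0.0287). Erlec1 was no longer called without control 1 (0.097), CPC 1 (0.0672), CPC 2 (0.0997) or CPC 3 (0.0523), with no scaling factors (0.0692), and without pair 1 (0.177), 2 (0.0805) or 3 (0.0571).

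The translocon showed 1 higher and 1 lower gene of 5, or 20% each, near the 19.6% and 19.7% of all tested genes. Sec61a1, the channel subunit, was at 207, 227 and 209 CPM in control and 282, 310 and 282 CPM in CPC. All exposed libraries were higher, and the rise was 1.36-fold (log2 0.44 ± 0.08, adjusted p = 0.0047, and 0.0697 without pair 1). The small channel subunits were not called. Sec61b was at 46.2, 52.1 and 46.5 CPM in control and 38.5, 46.5 and 40.5 CPM in CPC, which overlapped slightly. Its log2 change of -0.21 ± 0.10 was not called (adjusted p = 0.133), but it was called lower with the replicate block (0.029). Sec61g was at 62.4 to 69.6 CPM in control and 66.7 to 81.8 CPM in CPC, with no call (adjusted p = 0.282).

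Sec62 and Sec63 encode membrane partners of the channel that serve proteins entering after translation. Sec62 was at 255, 222 and 305 CPM in control and 184, 210 and 207 CPM in CPC, with the exposed libraries lower (log2 -0.38 ± 0.12, adjusted p = 0.0439). Sec62 was no longer called without control 1 (0.0953), control 3 (0.0932), CPC 1 (0.129), CPC 2 (0.0853) or CPC 3 (0.0733), with no scaling factors (0.0584), and without pair 1 (0.23) or 3 (0.105). Sec63 was at 191 to 210 CPM in control and 209 to 215 CPM in CPC, with no call (adjusted p = 0.351). The antisense gene 4933429H19Rik shares 11.7% of the Sec62 exon bases and had 5 to 16 counts per library.

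The TRAP complex sits beside the channel and helps some signal sequences open it. None of its 4 subunits was called, and their log2 changes were 0.12 for Ssr1, 0.03 for Ssr2, 0.04 for Ssr3 and 0.01 for Ssr4, with SEs of 0.08 to 0.13. Ssr3, by far the highest of them in CPM, was at 843, 900 and 759 CPM in control and 828, 980 and 755 CPM in CPC. The groups overlapped for every subunit.

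Levels of different genes were compared as CPM per kilobase, with the exon lengths given in the files. In control, Calr stood highest of the 37 at a mean of 365 CPM per kilobase, followed by Pdia3 at 355, P4hb at 313, Hsp90b1 at 307, Manf at 302, Ssr3 at 282 and Hspa5 at 267. In CPC, Hspa5 stood highest at 1282 CPM per kilobase, ahead of Hsp90b1 at 372. The order depends on those lengths, as an alternative chosen after seeing the data showed. With the union of all GENCODE M21 exons, Pdia3 and P4hb led in control, each at 313 CPM per kilobase, ahead of Calr at 277, while Manf, whose length was 545 bases in the files and 3524 in the union, stood at 46.7. Derl3 was the lowest in control with the files' lengths, at 13.7 CPM per kilobase, but Derl2, of 884 and 8049 bases, went from 82.5 to 9.06 and lay beside Derl3 at 9.07. Hspa5 stood highest in CPC with either length, at 1113 CPM per kilobase with the union.

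Ratios within a library, on the CPM per kilobase scale, were computed for 6 pairs of related genes chosen after their values were seen. Hspa5 over Hsp90b1 was 0.841, 0.838 and 0.944 in control and 3.61, 3.26 and 3.51 in CPC. Canx over Calr was 0.513, 0.524 and 0.534 in control and 1.05, 1.01 and 1.04 in CPC. The size of a ratio rests on the files' exon lengths: with the exon unions Hspa5, at 232 CPM per kilobase in control, stood above Hsp90b1 at 215 there too. The lengths are the same in every library, so the difference between groups does not rest on them. Sel1l over Syvn1 was 2.23, 2.42 and 2.16 in control and 3.93, 4.27 and 3.47 in CPC. Derl1 over Derl2 went from 0.673 to 0.876 in control to 1.37 to 1.61 in CPC, Edem1 over Edem3 from 0.740 to 0.859 to 1.47 to 1.63, and Sec61a1 over Sec61b from 0.774 to 0.799 to 1.19 to 1.30. In all 6 pairs the groups did not overlap, which the choice of pairs fixes, so the ratios are given as a description with no test.

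**Figure D3:**
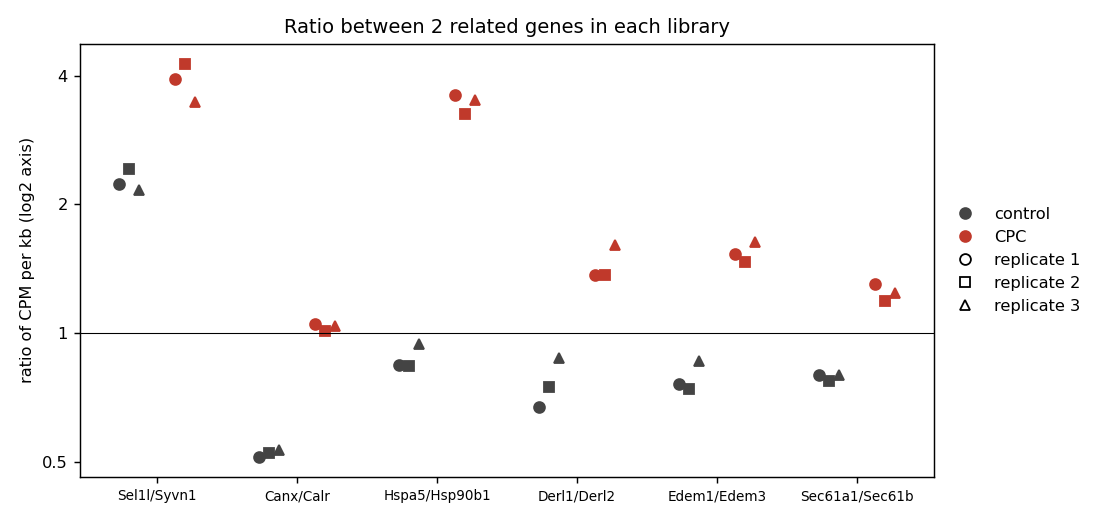
Ratio of CPM per kilobase between 2 related genes in each library, on a log2 axis, with the files' exon lengths, control in grey, CPC in red and 1 symbol for each replicate number. Canx over Calr sits near 0.5 in control and near 1 in CPC, and Hspa5 over Hsp90b1 is below 1 in control and above 3 in CPC.

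Promoter sequence was examined because the stress response acts on these genes through short DNA elements. RefSeq windows on GRCm38.p6, from 250 bases before to 50 after the transcription start, were matched by symbol for 30 of the 37 genes. The 7 with no window were Hspa13, Hyou1, Manf, Derl1, Erlec1, Sec61a1 and Ssr2. Of these Hyou1, Derl1 and Sec61a1 were called higher and Erlec1 lower, so the counts by element below leave them out. The ER stress element, read by ATF6 with NF-Y and also by XBP1, was searched on both strands as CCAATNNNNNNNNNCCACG. It was found in 9 of the 30 genes (30.0%) and in 39 of all 32851 promoter windows (0.119%). This element was first defined in promoters of this gene class, so its frequency here is no independent result. The stretch of 250 bases before the start is shown for the higher genes Hspa5 and Canx and the lower gene Calr, each with 1 copy, and for Herpud1, which has other elements, with matched letters in capitals and the gene's own strand read 5′ to 3′.
Hspa5, chr2:34771840-34772089, plus strand: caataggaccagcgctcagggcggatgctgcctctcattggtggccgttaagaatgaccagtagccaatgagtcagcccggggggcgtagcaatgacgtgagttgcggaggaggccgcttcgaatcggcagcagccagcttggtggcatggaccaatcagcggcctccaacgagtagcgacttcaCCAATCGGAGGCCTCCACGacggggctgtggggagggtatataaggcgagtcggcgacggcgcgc
Canx, chr11:50325674-50325923, minus strand: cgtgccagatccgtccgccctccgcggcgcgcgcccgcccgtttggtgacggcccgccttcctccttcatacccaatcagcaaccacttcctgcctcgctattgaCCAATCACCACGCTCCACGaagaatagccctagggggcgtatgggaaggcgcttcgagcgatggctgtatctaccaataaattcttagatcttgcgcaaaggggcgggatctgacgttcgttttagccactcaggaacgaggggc
Calr, chr8:84846932-84847181, minus strand: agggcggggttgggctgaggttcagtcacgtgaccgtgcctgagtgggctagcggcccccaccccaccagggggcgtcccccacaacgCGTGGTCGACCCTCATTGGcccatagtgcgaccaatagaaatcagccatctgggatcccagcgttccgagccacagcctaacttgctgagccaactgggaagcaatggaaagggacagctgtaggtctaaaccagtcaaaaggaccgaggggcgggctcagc
Herpud1, chr8:94386179-94386428, plus strand: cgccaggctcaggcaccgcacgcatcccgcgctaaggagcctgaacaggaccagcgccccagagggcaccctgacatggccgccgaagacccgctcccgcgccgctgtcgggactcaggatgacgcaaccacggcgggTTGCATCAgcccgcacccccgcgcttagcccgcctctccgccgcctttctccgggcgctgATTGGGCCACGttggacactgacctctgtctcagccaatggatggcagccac

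The copies themselves are set side by side because genes that carry the element had different calls. Capitals mark the fixed letters at each end, and each copy is written on the strand where it matches. In Calr, Creld2, Derl3 and the downstream copy of Hsp90b1 that is the strand opposite to the gene.
Hspa5, 65 to 47 bases before the start: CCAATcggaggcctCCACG
Hsp90b1, 212 to 194 before: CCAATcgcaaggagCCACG
Hsp90b1, 107 to 89 before: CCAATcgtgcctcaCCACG
Canx, 145 to 127 before: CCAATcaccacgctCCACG
Calr, 162 to 144 before: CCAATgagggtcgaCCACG
Pdia6, 98 to 80 before: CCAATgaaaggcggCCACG
Derl3, 156 to 138 before: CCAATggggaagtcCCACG
Dnajc3, 105 to 87 before: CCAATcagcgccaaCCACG
Creld2, 126 to 108 before: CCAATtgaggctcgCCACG
Syvn1, 44 to 26 before: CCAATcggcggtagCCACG

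Of the 9 genes with the element 2 were called higher (Hspa5 and Canx), 1 lower (Calr) and 6 not called, with a median log2 change of 0.28. Of the 21 matched genes without it 4 were higher and 5 lower, with a median of 0.01. With the replicate block, which added Hsp90b1, Pdia6 and Derl3, 5 of the 9 were higher, 1 lower and 3 not called, and of the 21 without it 4 were higher, 6 lower and 11 not called. The difference between these sets was not tested. Calr and Hspa5 each have 1 full copy, and Calr was the only gene with the element that was called lower. Whether the element has a part in any of these changes was not tested. The search took exact letters only, so near copies in any of these windows, that of Hspa5 included, were not counted. The second ER stress element, searched as ATTGGNCCACG, was in Herpud1 (52 to 42 bases before the start) and Dnajb11 (8 to 18 bases after it). That is 6.67% of the 30 genes against 0.0365% of all windows. The share rests on 2 genes of a list chosen by name, so it is no independent result either. Herpud1 was called higher and Dnajb11 lower. The core read by ATF4 with CHOP, searched as TGATGNAA, was in Herpud1 only, or 3.33% of the genes against 3.97% of all windows. The UPR core TGACGTGG was in none of the 30 genes and in 0.676% of all windows. No matched sites overlapped, and a match is only a match of letters.

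**Figure D4:**
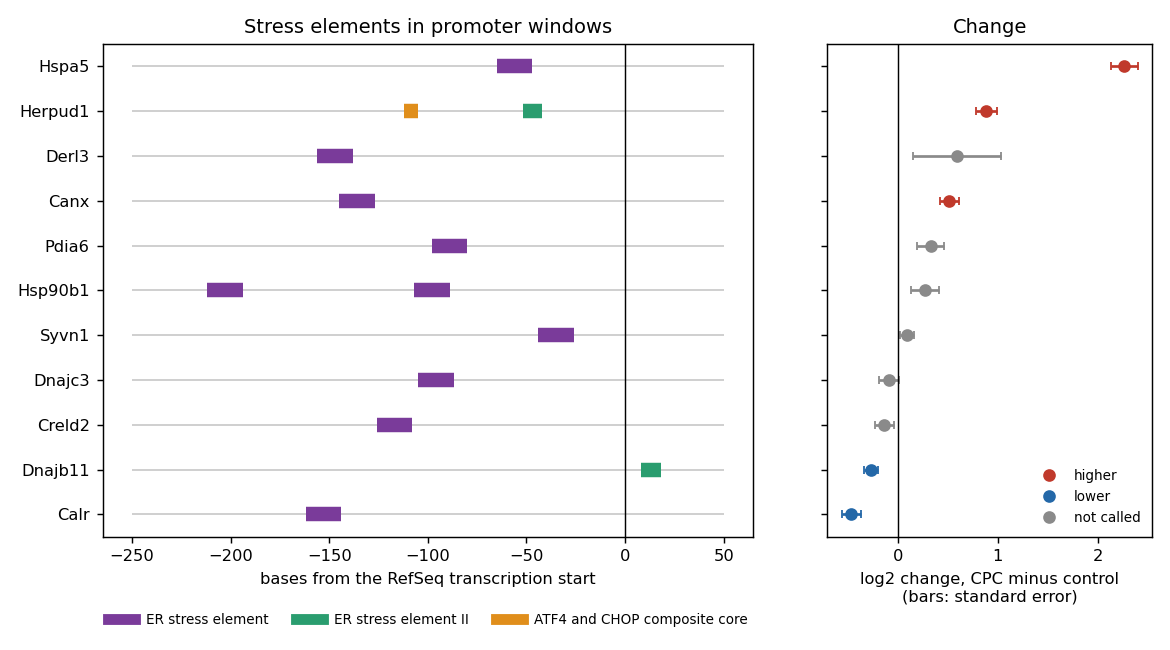
Left, positions of matched elements in the RefSeq promoter windows of the 11 genes that have one, in bases from the transcription start. Right, the log2 change of each gene with its standard error, from 2.26 for Hspa5 to -0.47 for Calr. Of the genes below 0, Calr and Dnajb11 were called lower, and Creld2 and Dnajc3 were not called.

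The neighbouring steps of the pathway were read from 6 lists of 124 genes, all of them tested. Of these 41 were higher and 18 lower, with a median log2 change of 0.11. These are 33.1% higher and 14.5% lower, beside 19.6% and 19.7% of all tested genes. The difference from all tested genes was not tested. Shares given for each list below stand beside the same 19.6% and 19.7%, and were not tested either. The 41 became 25 without control 1, 17 without pair 1 and 23 without pair 2, and the 18 became 5 without pair 1.

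UPR sensors and effectors had 8 higher and 2 lower of 17 (47.1% and 11.8%), and 1 lower without pair 1. Ppp1r15a, which encodes the phosphatase subunit GADD34 that ends the translation block of PERK, rose 4.26-fold from 71.5 ± 10.0 to 304 ± 31 CPM (SD, n = 3, adjusted p = 1.99e-04). Ern1, for the sensor IRE1, rose 2.14-fold from 131 ± 5.3 to 279 ± 16 CPM (adjusted p = 2.09e-04). Wfs1, an ER membrane protein, rose 2.69-fold from 134 ± 16 to 362 ± 47 CPM (adjusted p = 4.30e-04).

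Among ER oxidation genes and prolyl isomerases 8 of 24 were higher and 5 lower (33.3% and 20.8%). The 5 became 3 without control 1 and 2 without pair 2, and without pair 1 4 were higher and 1 lower. Ero1l, the oxidase that gives disulfide isomerases their oxidizing power, rose 4.14-fold from 125 ± 21 to 516 ± 42 CPM (adjusted p = 2.05e-04). Of the prolyl isomerases, Fkbp11 rose 2.27-fold from 10.4 ± 0.4 to 23.7 ± 0.6 CPM (adjusted p = 3.17e-04) and Fkbp14 fell 1.67-fold from 61.3 ± 4.4 to 36.6 ± 2.3 CPM (adjusted p = 0.00115).

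Genes that add and trim N-glycans had 8 higher and 3 lower of 18 (44.4% and 16.7%). The 8 became 4 without control 1 and 5 without pair 2, and without pair 1 2 were higher and 1 lower. Of the oligosaccharyltransferase subunits, Krtcap2 rose 1.68-fold (adjusted p = 6.66e-04) and Ost4 fell 1.90-fold, from 98.9 ± 1.2 to 52.0 ± 1.5 CPM (adjusted p = 2.05e-04). Mogs, the first glucosidase of glycan trimming, rose 1.45-fold (adjusted p = 0.00251). Both directions again stood within 1 enzyme complex, and both were also common across all tested genes.

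Ubiquitin and p97 steps of ERAD had 8 higher and 6 lower of 26 (30.8% and 23.1%). The 8 became 2 without control 1, 3 without control 2, 4 without CPC 1 or CPC 3, and 1 or 2 without pair 1 or 2, while the 6 became 2 without pair 1. Ufd1, a cofactor of p97, rose 1.48-fold (adjusted p = 0.00135), while Ubxn8, which tethers p97 to the ER, fell 1.71-fold (adjusted p = 0.00223), and Ngly1, which removes glycans from exported proteins, fell 1.44-fold (adjusted p = 0.00322, and 0.0731 without pair 1).

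The signal recognition particle and signal peptidase list had 4 higher and 1 lower of 18 (22.2% and 5.56%). Srp68 was up 1.47-fold (adjusted p = 0.00173) and Srp72 up 1.52-fold (adjusted p = 0.00196). The peptidase subunit Spcs1 was down 1.32-fold (adjusted p = 0.00341, and 0.077 without pair 1). Without pair 2 2 were higher, and the count of 1 lower became 0 and 2 without pairs 1 and 3. ER export and retrieval had 5 higher and 1 lower of 21 (23.8% and 4.76%), and 8 and 2 with the replicate block. The 5 became 3 without control 1 or control 3, 2 without control 2, CPC 1, CPC 2 or pair 2, and 1 without pair 1. The 1 became 0 without control 1, control 2, CPC 1, CPC 2 or CPC 3 and without pair 1 or 2. The higher genes included the cargo receptor Lman1, up 1.51-fold (adjusted p = 0.00414, and 0.0556 without pair 1), its partner Mcfd2, up 1.45-fold (adjusted p = 0.00173), and the coat subunit Sec24a, up 1.34-fold (adjusted p = 0.0179). Sec24a was no longer called without control 2 (0.0511), CPC 1 (0.0543) or CPC 2 (0.0505), and without pair 1 (0.104) or 2 (0.103).

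**Figure D5:**
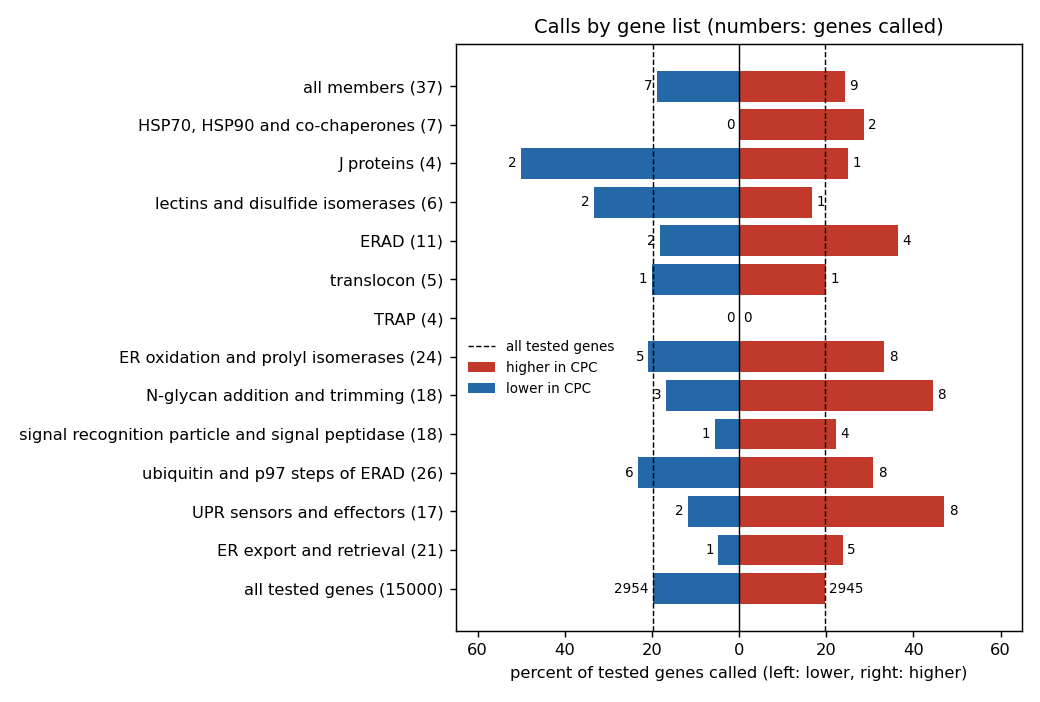
Percent of tested genes called higher (right, red) and lower (left, blue) in CPC for the 37 genes, their 6 roles and the 6 neighbouring lists, with the number of genes called at each bar and dashed lines at the shares of all tested genes. The 37 genes have bars of 24.3% higher and 18.9% lower beside 19.6% and 19.7% of all tested genes.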

How the data were processed

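RNA sequencing was measured in 6 libraries, 3 control and 3 CPC, grouped by their titles. Each deposited file holds whole-number counts of reads per gene with symbol, location on GRCm38.p6 and exon length, per the file headers. Libraries were made with a SMARTER mRNA-seq kit, per the labels' protocols. Bowtie2, RSEM and the human build hg19 are named, with no versions, per the submitters' processing notes; since the files hold mouse genes, the tools that made these counts are uncertain. No source used here gives the strand or how shared reads were treated. Of the 37 genes, 12 share exon bases with another gene in GENCODE M21. The largest shares were Ssr2 with Gm10704 (12.8%), Sec62 (11.7%) and Hsp90b1 with 1810014B01Rik (10.3%). Some smaller shares were with genes that had more counts per library than 1810014B01Rik. Manf shared 4.14% with Dcaf1 (1452 to 2272 counts), Derl2 2.87% with Mis12 (722 to 911) and Syvn1 1.87% with Mrpl49 (638 to 1102). A share of bases is not a share of counts, so how far these counts are affected is not known.

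Counts were filtered with filterByExpr, scaled by TMM and tested with edgeR 4.0.16 (R 4.3.3, robust quasi-likelihood fit without covariates), and p-values were adjusted by Benjamini-Hochberg over 15000 genes at 0.05. The SE of a log2 change is its size over the root of the F statistic. Single-gene CPM is TMM-scaled, sums are plain CPM, folds are the edgeR log2 changes taken out of the log scale, and pair changes add 0.5 CPM.

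All 37 genes are named whatever their values, with the 3 smallest adjusted p of each neighbouring list and Gata4 and Inha as label checks. The genes and lists were chosen with earlier results of these data known. A planned grouping by protein retrieval signals was not run, since no protein table was used here. Across genes, libraries of equal number deviated together from their group means (correlations 0.662, 0.593 and 0.633), with others at -0.368 to -0.275, so the numbers paired the libraries; no label says what they share. No 2 libraries of a group agreed within counting noise (chi-square per degree of freedom 19.3 to 51.3). The 17 alternatives were DESeq2 1.42.0, limma-voom 3.58.1, RLE factors, no scaling factors, no filter, at least 5 CPM in 3 libraries, summed identifiers, the replicate block, and leaving out each library or each replicate number. Exon unions for levels per kilobase and a TMM-scaled sum were added after seeing the data. The edgeR script was tested on simulated data.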

Additional observations from a re-analysis of the deposited data

How the results depend on the processing

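Of the 16 calls among the 37 genes, 6 held under all 17 alternatives, each with its direction. With no scaling factors 2 lectins and disulfide isomerases were higher, 1 ERAD gene and 0 translocon genes lower, and 10 export genes higher and 0 lower; median log2 changes were -0.117 for the lectins and isomerases, 0.276 for N-glycan genes, 0.133 for export, 0.179 for all neighbouring genes and 0.010, with its sign turned, for the ubiquitin and p97 list. The median of the lectins and isomerases was -0.145 with limma-voom, -0.171 with no filter, -0.200 with the 5 CPM filter and -0.150 with the replicate block. The count of lower export genes was 0 with limma-voom, 3 with the 5 CPM filter and 2 with the block. The block also gave 2 higher lectins and isomerases, 2 lower translocon genes and 8 higher export genes, and it changed no call of the 37 genes beyond those given above. Signs turned for Hspa13 with no scaling factors (0.015), and for Ssr4 (-0.007) and Eif2ak3 (-0.004) with the 5 CPM filter. The cause was not tested.

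Leaving out a library or a replicate number lowers the number of samples, and these fits had no replicate block. It gave 928 to 2613 genes higher and 1033 to 2576 lower. Of the 37 genes 6 to 10 were higher and 0 to 6 lower, with medians of -0.002 to 0.091. Lower J proteins ran from 0 to 2, lectins and isomerases from 0 to 2 in each direction (median -0.302 to 0.021), lower ERAD genes from 0 to 2, translocon genes from 0 to 1 in each direction, and the TRAP median from -0.015 to 0.107. Neighbouring genes ran from 17 to 41 higher and 5 to 17 lower (median 0.051 to 0.134). By list, higher and lower counts were 4 to 10 and 1 to 5 for oxidation and isomerases (median 0.038 to 0.236), 2 to 8 and 1 to 3 for N-glycans (median 0.180 to 0.272), 2 to 5 and 0 to 2 for signal recognition and peptidase (median -0.023 to 0.148), 1 to 8 and 2 to 7 for ubiquitin and p97, and 1 to 7 and 0 to 1 for export (median 0.048 to 0.120), with 1 to 2 lower UPR genes. Uncalled genes that changed sign spanned -0.130 to 0.004 for Hspa13, -0.034 to 0.092 for Os9, -0.409 to 0.236 for Pdia4, -0.003 to 0.224 for Ssr1, -0.055 to 0.131 for Ssr2, -0.062 to 0.122 for Ssr3, -0.046 to 0.065 for Ssr4 and -0.043 to 0.069 for Eif2ak3. The lowest count of the 37 genes in a library was 237, in Derl3, whose replicate 2 was high in both groups.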

Other observations

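Replicate 2 was the highest library of both groups for 14 of the 37 genes, against 2425 of all tested genes (16.2%). Derl3 and Pdia4 stood out among them. In Derl3, replicate 2 exceeded the next library of its group by at least 0.74 on the log2 scale in both groups, and 84 tested genes had an excess as large or larger, Derl3 included. In Pdia4 the excess was at least 0.45, with 205 tested genes as high. CPC 2 was the highest CPC library for 30 of the 37 genes, against 32.9% of all tested genes. CPC 3 was the lowest for 24. No share of lowest libraries was computed over all tested genes, so that count does not set the 37 genes apart. The median coefficient of variation of the 37 genes was 5.8% within control and 6.5% within CPC.

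Deviations from the group means of the 37 genes alone correlated at 0.698, 0.781 and 0.623 between libraries of equal replicate number, across genes. Between unequal numbers the correlations ran from -0.653 to 0.291. These are descriptions across genes of the same libraries.

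Among the other sensors and factors of the stress response, named after their values were seen, Atf6 showed a 1.74-fold rise, its control mean being 229 ± 16 CPM and its CPC mean 400 ± 21 CPM (SD, n = 3, edgeR adjusted p = 7.77e-04). Xbp1 rose 1.35-fold from 119 ± 17 to 160 ± 19 CPM (adjusted p = 0.0354). The Xbp1 call did not hold without control 1 (0.0719), control 3 (0.0714), CPC 1 (0.105), CPC 2 (0.104), or the libraries numbered 1 (0.175) or 2 (0.1) in both groups. Eif2ak3, for the sensor PERK, was at 41.9 ± 1.8 CPM in control and 42.3 ± 3.5 CPM in CPC and was not called (adjusted p = 0.912). Vcp, for the segregase p97, fell 1.31-fold from 324 ± 10 to 247 ± 10 CPM (adjusted p = 0.00536, and 0.0914 without both libraries numbered 1).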
